A study of Homo sapiens with 6 samples.

Results

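The CIP/KIP and INK4 genes encode the inhibitors of the cyclin-dependent kinases (CDKs) that drive the cell cycle. The rule took probe sets with exactly 1 gene symbol in the platform annotation and, where a gene had several, the brightest over all arrays. It found 6 of the 7 genes, each with 1 probe set, among 18417 genes measured in all: CDKN1A, CDKN1B and CDKN1C of the CIP/KIP family, and CDKN2A, CDKN2B and CDKN2D of the INK4 family. The remaining INK4 gene, CDKN2C, is not listed in that annotation and was not analysed here.

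The INK4 proteins bind CDK4 and CDK6 and keep them from pairing with D-type cyclins. The CIP/KIP proteins act more widely and block the complexes of CDK2 with cyclins E and A. RB, the retinoblastoma protein, stands downstream of both families: active CDKs phosphorylate RB, and RB in its unphosphorylated form holds back the E2F transcription factors. MCF10A cells are known to have lost CDKN2A and CDKN2B from their genome, so signals of these genes here cannot be read as expression without a genotype of the cells used.

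Expression was measured on 6 single-channel arrays of MCF10A, a non-tumorigenic human mammary epithelial line, in a version carrying ErbB2, a receptor tyrosine kinase. There were 3 RB-deficient-labelled arrays and 3 arrays labelled RB-proficient, whose titles carry the tags miRB and miNS, which the labels do not spell out. All the cells were grown for 7 days in 3-D culture in Matrigel, a reconstituted basement membrane, with insulin, hydrocortisone, cholera toxin and horse serum in the medium, and the matrix was collected together with the cells. Nothing in the labels says that replicates were separate cultures, so p-values measure the spread between these arrays, which may be technical.

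Levels are given as log2 intensity after scaling each array to a common median, with scaled values under 1 set to 1, so that 0 is the floor. Differences are RB-deficient minus RB-proficient on that scale, with n = 3 arrays in each group. RB1, which encodes RB, had levels of 3.45, 5.09 and 6.04 in the RB-deficient-labelled arrays 1 to 3, against 7.01, 5.77 and 7.65 in RB-proficient arrays 1 to 3. The groups overlapped for RB1, which differed by −1.95 (SE 0.76) and had an adjusted p of 0.302 (limma). The RB1 difference was −1.25 without RB-deficient 1 and −0.77 without RB-deficient 1 and 2 together, and every direction below rests on the labels. The RB-deficient-labelled arrays were less alike than the others: the SD of a gene had a median of 0.84 in them and 0.40 in the RB-proficient arrays. Pearson's r across genes, which are not independent replicates, was 0.673 to 0.753 among the RB-deficient-labelled arrays and 0.901 to 0.924 among the RB-proficient arrays. RB-deficient 3 had an r of 0.832 to 0.882 with the RB-proficient arrays, against 0.713 to 0.753 within its own group. These were 0.684 to 0.715 and 0.673 to 0.713 for RB-deficient 1, and 0.69 to 0.755 and 0.673 to 0.753 for RB-deficient 2. By r, no RB-deficient-labelled array was thus closer to its own group than to the RB-proficient arrays. The array labelled RB-deficient 1 had 4.71% of genes at the floor, against 1.62% and 0.684% in the other arrays of its group and 0.326% to 0.684% in the RB-proficient arrays.

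None of the measured CDK inhibitor genes passed the threshold of 0.05 on limma's adjusted p over all genes. The count was 0 of 6, where the same threshold took 0.00543% of all genes, and the adjusted p values of the members ran from 0.333 to 0.766. CDKN1A alone had an unadjusted p under 0.05, on the lower side, where 10.8% of all genes had one. It was also the only member whose groups did not overlap, and 15.3% of all genes were lower without overlap. The difference was above 0 for 4 of 6 members (CDKN1B, CDKN2A, CDKN2B and CDKN2D), against 41.4% of all genes. It was below 0 for CDKN1A and CDKN1C, against 58.6% of all genes. The median difference of the members was 0.44, beside −0.21 over all genes. Without CDKN2A and CDKN2B, which MCF10A is known to have lost, 2 of 4 members were above 0 and the median was 0.05. CDKN2A and CDKN2B were both among the 4 members above 0, so the count of 2 of 4 was fixed by leaving them out. With all 6 members, the median was −0.11 without RB-deficient 1 and 2 together.

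**Figure D1:**
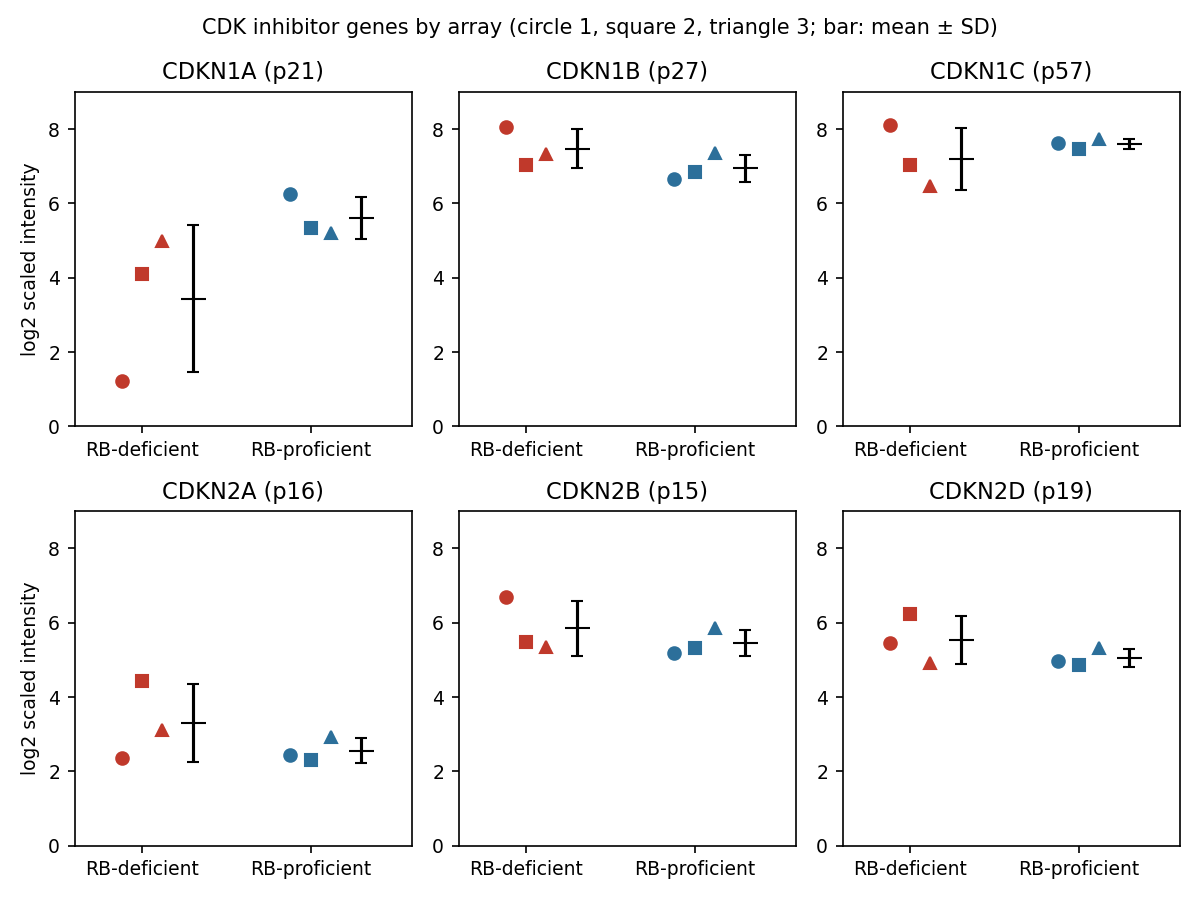
Level of each measured CDK inhibitor gene on every array, as log2 scaled intensity, with the RB-deficient-labelled arrays in red and the RB-proficient arrays in blue, and the mean and SD of each group (n = 3) in black. CDKN1A lies between 1.21 and 5.00 in the RB-deficient-labelled arrays and between 5.21 and 6.25 in the RB-proficient arrays, and the groups of the other genes overlap.

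CDKN1A encodes p21, the inhibitor that p53 induces after DNA damage. Its level was 1.21, 4.11 and 5.00 in the RB-deficient-labelled arrays 1 to 3, against 6.25, 5.35 and 5.21 in RB-proficient arrays 1 to 3. All values of the RB-deficient-labelled arrays lay below all RB-proficient values, the first of them far below and the third only just. The group means were 3.44 ± 1.98 (SD, n = 3) in the RB-deficient-labelled arrays and 5.60 ± 0.57 (SD, n = 3) in the RB-proficient arrays. CDKN1A was thus 4.47-fold lower, a difference of −2.16 (SE 0.89, 95% interval −4.17 to −0.15), with limma's p at 0.0377 unadjusted and 0.333 adjusted, and it did not pass.

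The size of the CDKN1A difference rested on the array labelled RB-deficient 1. Without it the difference was −1.05, and without the RB-deficient-labelled arrays 1 and 2 together it was −0.60. The direction was the same in all 16 alternative settings that kept the gene, and the adjusted p ran from 0.139 to 0.728. Settings that changed only the gene filter, the averaging of a gene's probe sets or limma's variance and block options could not move the difference. The gap between the groups was narrow enough to close with another scaling: after centring each array on the median of its genes, and with no scaling, the groups overlapped. With an offset of 16 added before log2 the difference was −1.08, and with a floor of 16 it was −1.23. Ranked within each array, CDKN1A stood at percentiles 7.06, 30.9 and 50.8 of all genes in the RB-deficient-labelled arrays 1 to 3, against 71.1, 56.4 and 50.1 in RB-proficient arrays 1 to 3, and on these ranks the third array of each group changed order.

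CDKN1B encodes p27, which holds resting cells out of the cycle and is removed through ubiquitination by SKP2. Its level was 8.06, 7.04 and 7.33 in the RB-deficient-labelled arrays 1 to 3, against 6.65, 6.84 and 7.35 in RB-proficient arrays 1 to 3. The highest value was that of RB-deficient 1, and RB-proficient 3 lay above the other RB-deficient-labelled arrays. CDKN1B was 1.45-fold higher, a difference of 0.53 (SE 0.51, 95% interval −0.62 to 1.68, adjusted p 0.664 in limma's test), and did not pass. The difference stayed above 0 in all 17 alternative settings, from 0.24 to 0.75, though some of these, as for CDKN1A, could not move it. After quantile normalization the groups of CDKN1B did not overlap, where 8.47% of all genes were higher without overlap, and the adjusted p was 0.502.

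CDKN1C encodes p57, an inhibitor from an imprinted gene cluster with a known role in development. Its level was 8.10, 7.03 and 6.48 in the RB-deficient-labelled arrays 1 to 3, against 7.62, 7.46 and 7.72 in RB-proficient arrays 1 to 3. RB-deficient 1 was the highest of all arrays and the other arrays of its group were the lowest, while the RB-proficient arrays lay close together (SD 0.83 in the RB-deficient-labelled arrays and 0.14 in the RB-proficient arrays). CDKN1C was 1.32-fold lower, a difference of −0.40 (SE 0.55, 95% interval −1.63 to 0.84, adjusted p 0.765 in limma's test). It was −0.85 without RB-deficient 1 (adjusted p 0.375) and −0.04 without RB-deficient 3. PHLDA2, an imprinted neighbour of CDKN1C that restrains placental growth in mice, had levels of 8.09, 6.46 and 6.62 in the RB-deficient-labelled arrays 1 to 3, against 7.46, 7.35 and 7.48 in RB-proficient arrays 1 to 3. For both genes RB-deficient 1 was the highest array and RB-deficient 2 and 3 were the lowest, as for 4.67% of all genes. Among the 3 measured neighbours of CDKN1C this order was found in PHLDA2 and not in NAP1L4 or KCNQ1.

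**Figure D2:**
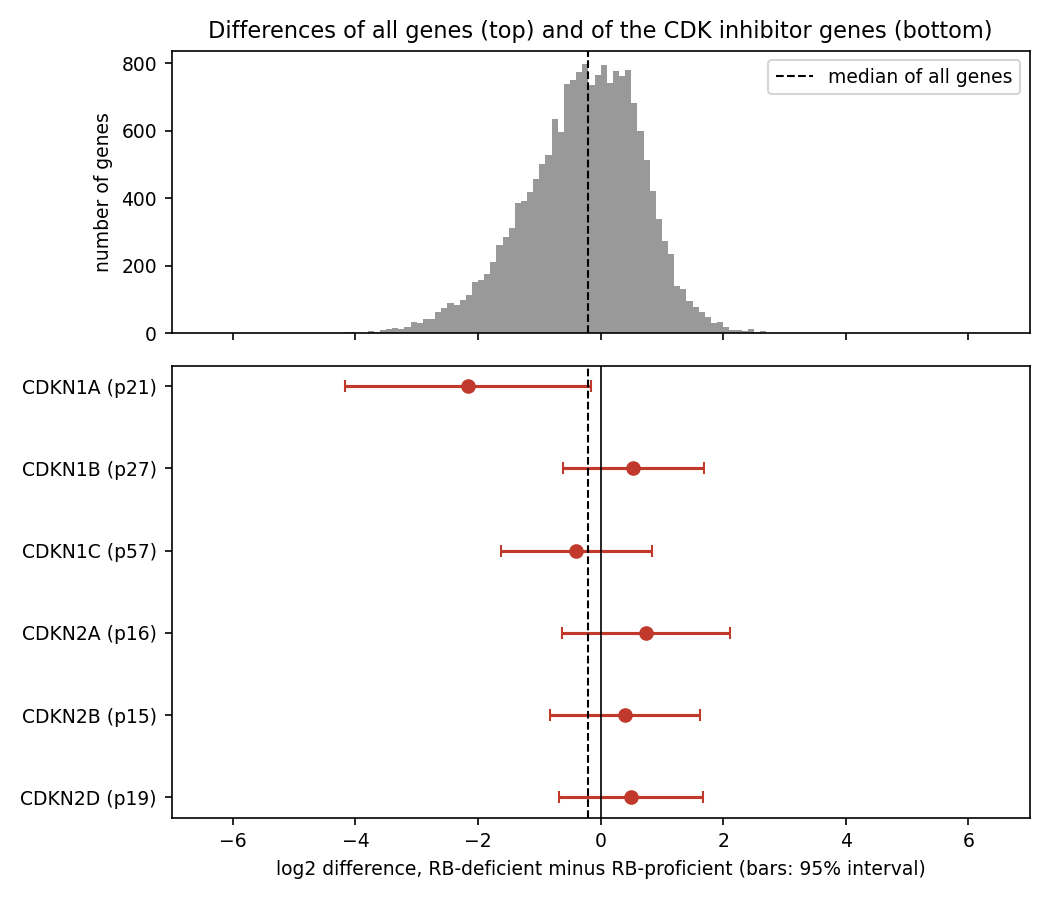
Differences of all 18417 genes as a histogram (top) and of the 6 CDK inhibitor genes with their 95% intervals (bottom), both on the log2 scale and RB-deficient minus RB-proficient, with the median of all genes dashed at −0.21. The interval of CDKN1A runs from −4.17 to −0.15, and the other intervals include 0.

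The CIP/KIP genes were also set against each other within each array, which removes the scaling of the array. A log2 difference between probe sets is not a ratio of transcripts, so only its change between arrays can be read. CDKN1A minus CDKN1B was −6.85, −2.93 and −2.33 in the RB-deficient-labelled arrays 1 to 3, against −0.40, −1.49 and −2.14 in RB-proficient arrays 1 to 3. All values of the RB-deficient-labelled arrays were below all RB-proficient values, with a mean change of −2.69. CDKN1B minus CDKN1C was −0.04, 0.02 and 0.85 in the RB-deficient-labelled arrays 1 to 3, against −0.97, −0.61 and −0.38 in RB-proficient arrays 1 to 3, a mean change of 0.93 without overlap. For CDKN1A minus CDKN1C the groups overlapped, with a mean change of −1.76. The exact two-sided permutation p was 0.1 for the CDKN1A and CDKN1B pair and for the CDKN1B and CDKN1C pair and 0.4 for CDKN1A and CDKN1C, or 0.15, 0.15 and 0.4 adjusted over the 3 pairs. Of all 15 pairs of members 4 did not overlap, the others being CDKN1A with CDKN2A and CDKN1C with CDKN2B, and adjusted over the 15 pairs the lowest p was 0.375. The smallest p that 3 arrays against 3 allow is 0.1, so none could pass. These pairs were examined after the values were seen. They share members, and the share of all gene pairs without overlap was not computed. Among single genes, 7.12% were higher and 15.3% lower without overlap.

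**Figure D3:**
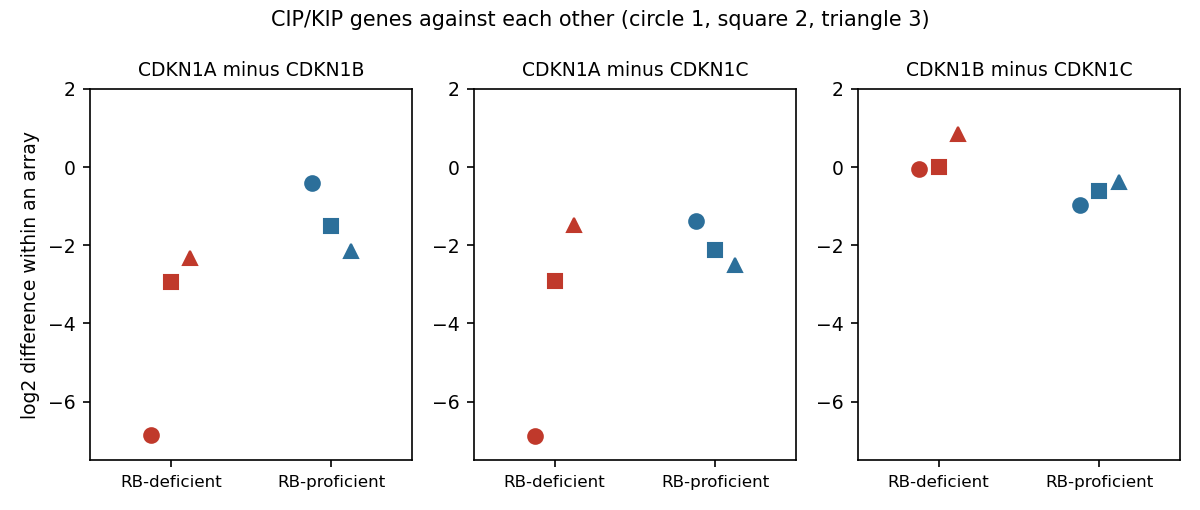
Log2 difference within each array between CIP/KIP genes, for 3 pairs, with the RB-deficient-labelled arrays in red and the RB-proficient arrays in blue. CDKN1A minus CDKN1B is lower in the RB-deficient-labelled arrays without overlap, CDKN1B minus CDKN1C is higher without overlap, and CDKN1A minus CDKN1C overlaps.

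The promoter windows of CDKN1A and CDKN1B are shown to put the sequence at their starts beside the values above, since E2F factors, the partners of RB, bind near transcription starts. No difference of either gene passed the test. The windows run from 250 bases before to 50 bases after a start, in RefSeq on build GRCh38.p14, and capitals mark GC boxes (GGGCGG on either strand), the sites of SP1, known as an activator of CDKN1A. The CDKN1A window is chr6:36678464-36678763 and the CDKN1B window is chr12:12717118-12717417, both on the + strand.
CDKN1A: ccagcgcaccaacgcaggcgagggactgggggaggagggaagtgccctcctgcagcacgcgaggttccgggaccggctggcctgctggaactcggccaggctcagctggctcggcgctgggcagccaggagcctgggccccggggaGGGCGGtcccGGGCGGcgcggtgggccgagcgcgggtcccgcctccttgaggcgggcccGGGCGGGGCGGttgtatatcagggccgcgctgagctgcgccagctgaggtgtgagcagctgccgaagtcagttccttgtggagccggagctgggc
CDKN1B: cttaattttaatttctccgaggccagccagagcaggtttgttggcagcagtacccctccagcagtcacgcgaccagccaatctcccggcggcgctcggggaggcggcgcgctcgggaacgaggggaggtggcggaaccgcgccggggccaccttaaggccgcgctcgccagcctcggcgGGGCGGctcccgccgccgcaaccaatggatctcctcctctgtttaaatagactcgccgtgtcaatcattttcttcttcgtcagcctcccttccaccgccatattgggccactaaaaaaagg
The CDKN1A window holds 4 GC boxes, of which the last 2 overlap by 1 base, and the CDKN1B window holds 1. Of all 35116 windows of this length, 45% hold a GC box. The CDKN1B window also holds 3 CCAAT boxes (CCAAT on either strand), and the CDKN1A window holds 0, where 34.6% of all windows hold one. An E2F motif written as TTTCCCGC, TTTCGCGC, TTTGCCGC or TTTGGCGC, on either strand, occurred in 0 of the 9 windows that RefSeq gives for 6 of the 7 inhibitor genes, and in 3.31% of all windows. These are matches of letters in a short window and say nothing about binding. CDKN1C had no entry.

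CDKN2A encodes p16 and, in another reading frame, ARF, and its probe set carries transcripts of both. Its level was 2.36, 4.42 and 3.11 in the RB-deficient-labelled arrays 1 to 3, against 2.44, 2.30 and 2.94 in RB-proficient arrays 1 to 3. The second array labelled RB-deficient stood above the rest, and the groups overlapped. The difference was 0.74 (SE 0.61, 95% interval −0.63 to 2.11, adjusted p 0.611 in limma's test), or 1.67-fold higher, and it was 0.17 without RB-deficient 2 and 1.20 without RB-deficient 1. On the scaled linear scale CDKN2A lay under 16 in 5 of 6 arrays, and with a floor of 16 the difference was 0.14.

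CDKN2B encodes p15, the INK4 inhibitor induced by TGF-beta, and lies beside CDKN2A. Its level was 6.70, 5.49 and 5.36 in the RB-deficient-labelled arrays 1 to 3, against 5.20, 5.31 and 5.85 in RB-proficient arrays 1 to 3. RB-deficient 1 was high and the other arrays of its group lay within the RB-proficient range. The difference of 0.39 (SE 0.55, 95% interval −0.83 to 1.62, adjusted p 0.766 in limma's test) became −0.031 without RB-deficient 1. A signal was thus recorded for CDKN2B on every array of a line known to lack the gene, and what the probe set measured there was not tested.

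CDKN2D encodes the p19 INK4 protein, which differs from ARF. Its level was 5.46, 6.22 and 4.93 in the RB-deficient-labelled arrays 1 to 3, against 4.96, 4.85 and 5.33 in RB-proficient arrays 1 to 3. RB-deficient 2 was the highest, RB-deficient 1 came next, and RB-deficient 3 lay within the RB-proficient range. The difference was 0.49 (SE 0.52, 95% interval −0.68 to 1.66, adjusted p 0.695 in limma's test), or 1.41-fold higher. It was 0.15 without RB-deficient 2, and −0.12 without RB-deficient 1 and 2 together.

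All RB-deficient-labelled arrays lay on the same side of the RB-proficient mean for CDKN1A (below) and CDKN1B (above), and on both sides of it for the other 4 members. RB-deficient 1 had the highest level of CDKN1B, CDKN1C and CDKN2B and the lowest of CDKN1A, and RB-deficient 2 had the highest level of CDKN2A and CDKN2D. The highest array was thus labelled RB-deficient for 5 of 6 members, beside 58.1% of all genes, and the lowest for 2 of 6, beside 72.2% of all genes. The SD was larger in the RB-deficient-labelled arrays for 6 of 6 members, as for 81% of all genes. Against the RB-proficient mean, the median shift of the members was 0.46, 0.07 and −0.11 in the RB-deficient-labelled arrays 1, 2 and 3, where that of all genes was −0.14, −0.37 and −0.14.

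**Figure D4:**
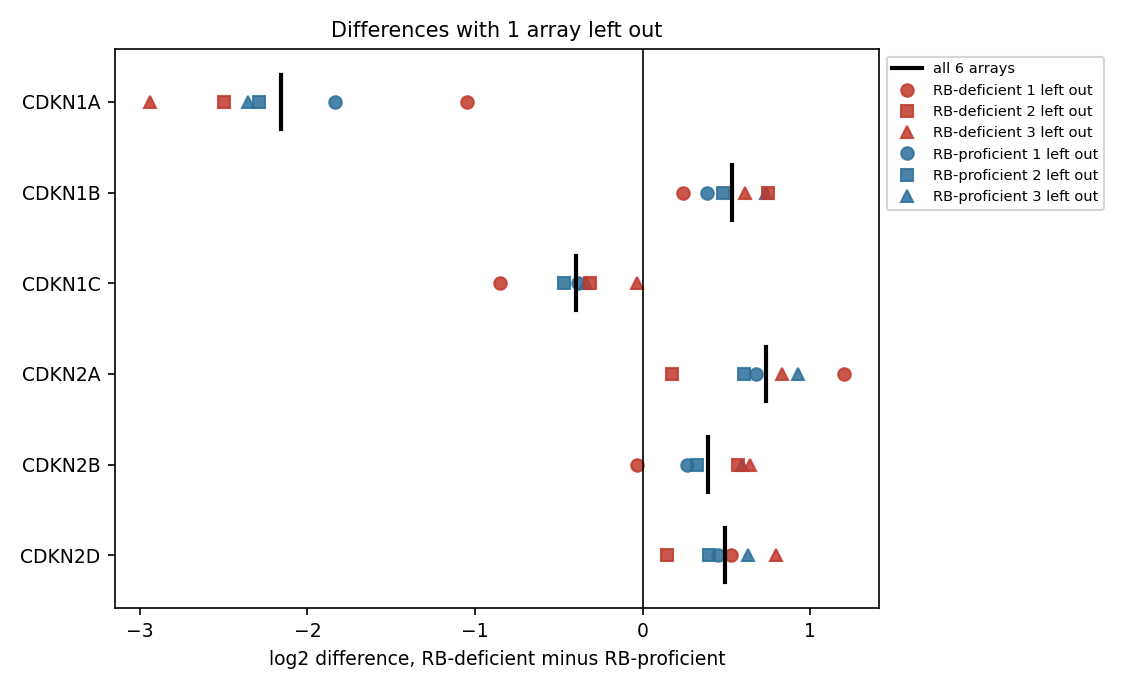
Difference of each CDK inhibitor gene, RB-deficient minus RB-proficient on the log2 scale, with all 6 arrays (black) and with each array left out in turn (red for the RB-deficient-labelled arrays, blue for RB-proficient). CDKN1A stays below 0, from −2.94 to −1.05, CDKN1B stays above 0, from 0.24 to 0.75, and CDKN2B runs from −0.031 to 0.64.

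The genes whose levels followed those of an inhibitor most closely over the 6 arrays were taken from those at least as bright as the median gene, and with 6 points and so many candidates high correlations are common. For CDKN1A they were CDH1, which encodes E-cadherin (Pearson's r 0.997), ERMARD (0.996) and FBXO32, a muscle atrophy ubiquitin ligase (0.996), and 192 of 9209 genes had an r above 0.95. CDH1 had levels of 5.45, 7.66 and 8.16 in the RB-deficient-labelled arrays 1 to 3, against 9.26, 8.42 and 8.22 in RB-proficient arrays 1 to 3. Like CDKN1A it was lowest in RB-deficient 1, nearly level in the third array of each group and highest in RB-proficient 1, and its difference was −1.54 (SE 0.73, adjusted p 0.387 in limma's test), or −0.72 without RB-deficient 1. For CDKN1B the closest genes were GUCA2B (r 0.989), KLHL36 (0.985) and NR2C2AP (0.984). Those closest to CDKN1C were RALY (0.996), SPATC1L (0.991) and GRWD1 (0.988). CDKN2A was followed by DMRTC2 (0.990), FUT6 (0.983) and ENTPD8 (0.979), and CDKN2B by MAGOH (0.997), H2AJ (0.994) and RPS29 (0.993). The genes nearest to CDKN2D were CD37 (0.992), ARHGAP33 (0.991) and LTB (0.990). The arrays share scaling and floor, and no p is given.

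The kinases and cyclins on which the inhibitors act, their turnover genes, activators and repressors, and the neighbours of the inhibitor genes were described by 6 lists with 70 measured genes. By limma's test 0 of 70 passed an adjusted p of 0.05, and at an unadjusted p under 0.05 there was 1 higher and 10 lower, where 2.85% and 10.8% of all genes were. Groups did not overlap for 4 genes on the higher side (5.71%) and 12 on the lower (17.1%), beside 7.12% and 15.3% of all genes. The median difference of the 70 genes was −0.32, beside −0.21 over all genes. Another 4 lists held the pocket proteins, other p53 targets, proliferation genes and reference genes, with 40 further genes, of which 0 passed. With the offset of 16 the partner and regulator genes DDB1 and ID1 passed, both lower, as did ACTB, a reference gene, and SFN, a p53 target. With eBayes with trend and robust ACTB passed alone of these 110 genes.

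Of the 14 kinases and cyclins, 8 had differences above 0 and 6 below, with a median of 0.04, and 0 passed. CDK4, the kinase that INK4 proteins bind, had levels of 6.74, 4.48 and 6.04 in the RB-deficient-labelled arrays 1 to 3, against 7.02, 7.67 and 8.73 in RB-proficient arrays 1 to 3. The groups of CDK4 did not overlap, and the difference was −2.05 (SE 0.71, adjusted p 0.275 in limma's test). CCND3, a D-type cyclin that pairs with CDK4, was at 3.36, 3.68 and 3.62 in the RB-deficient-labelled arrays 1 to 3, against 4.84, 4.10 and 5.50 in RB-proficient arrays 1 to 3, also without overlap (difference −1.26, SE 0.53, adjusted p 0.335). CCND3 lay under a scaled 16 in 3 of 6 arrays, and with the offset of 16 its difference was −0.70. The other INK4 target, CDK6, differed by −0.07 (SE 0.52), and CDK2, the kinase that CIP/KIP proteins block, by 0.03 (SE 0.55). CCNB1, the mitotic cyclin B1, differed by −0.82 (SE 0.73), or −1.53 without RB-deficient 1. CCNE1, cyclin E1, differed by −0.59 (SE 0.69), or 0.07 without RB-deficient 2. CCNE1 lay under a scaled 16 in 4 of 6 arrays, and with the offset of 16 its difference was −0.18. CDK1 was at 7.47 in RB-deficient 1, against 4.36 and 5.77 in the other arrays of its group and 5.26, 5.54 and 6.24 in RB-proficient arrays 1 to 3. Without RB-deficient 1 the list median was −0.33.

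Genes for the turnover of the CIP/KIP proteins had 15 of 17 differences below 0, with a median of −0.50, and 0 passed. DDB1, the adaptor of the CUL4 ligase that degrades p21 in S phase, was at 6.25, 5.25 and 7.17 in the RB-deficient-labelled arrays 1 to 3, against 8.21, 7.99 and 9.24 in RB-proficient arrays 1 to 3. DDB1 did not overlap between the groups and differed by −2.25 (SE 0.63, adjusted p 0.221 in limma's test). SKP2, the F-box protein that targets p27, had levels of 5.67, 5.35 and 6.39 in the RB-deficient-labelled arrays 1 to 3, against 7.10, 6.31 and 7.67 in RB-proficient arrays 1 to 3. It differed by −1.22 (SE 0.56, adjusted p 0.371), with RB-deficient 3 just above RB-proficient 2. JUN, a transcription factor also on this list, differed by −1.43 (SE 0.67), or −0.70 without RB-proficient 1. RNF123, a ligase for p27 in G1 phase, differed by −2.44 (SE 0.92), or −0.39 without RB-deficient 1 and 2 together. RNF123 reached the floor in RB-deficient 2 and lay under a scaled 16 in 5 of 6 arrays, and with the offset of 16 its difference was −0.70.

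Activators of inhibitor genes had 12 of 17 differences below 0, a median of −0.62 and 0 calls. SMAD4, which carries TGF-beta signals to CDKN2B and CDKN1A, was at 4.15, 4.35 and 5.61 in the RB-deficient-labelled arrays 1 to 3, against 6.18, 6.58 and 6.78 in RB-proficient arrays 1 to 3. Its groups did not overlap, and the difference was −1.81 (SE 0.55, adjusted p 0.237 in limma's test). ETS2, an activator of CDKN2A, differed by −1.71 (SE 0.57), KLF6, an activator of CDKN1A, by −1.73 (SE 0.63; −0.53 without RB-deficient 1 and 2 together) and MEN1, which maintains CDKN1B and CDKN2C transcription in mouse pancreatic islets, by −1.26 (SE 0.50), each also without overlap. KLF6 and MEN1 each lay under a scaled 16 in 2 of 6 arrays, and with the offset of 16 they differed by −0.87 and −0.61. The list median was −0.25 without RB-deficient 1.

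Repressors had 8 of 13 differences below 0 and a median of −0.06, with 0 calls. ID1, which opposes ETS factors at CDKN2A, was at 2.79, 3.92 and 4.16 in the RB-deficient-labelled arrays 1 to 3, against 5.63, 6.54 and 6.06 in RB-proficient arrays 1 to 3. The ID1 difference was −2.45 (SE 0.56, adjusted p 0.206 in limma's test), without overlap. ID1 lay under a scaled 16 in 2 of 6 arrays. With the offset of 16 its difference was −1.54, and it passed (adjusted p 0.0483 in limma's test). TFAP4, a repressor of CDKN1A, differed by 0.71 (SE 0.48), without overlap on the higher side. PCGF2, a Polycomb protein, differed by −2.60 (SE 1.36) with RB-deficient 1 at the floor, and by −0.66 without that array. RING1, another Polycomb protein, differed by −0.78 (SE 0.53). Without RB-deficient 1 the median of the repressors was −0.66.

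Other targets of p53 had 16 of 22 differences below 0, with a median of −0.33 and 0 calls. SFN, the 14-3-3 sigma protein that arrests cells in G2, was at 7.35, 6.62 and 7.03 in the RB-deficient-labelled arrays 1 to 3, against 8.61, 8.59 and 9.21 in RB-proficient arrays 1 to 3. SFN did not overlap between the groups and differed by −1.80 (SE 0.49, adjusted p 0.214 in limma's test), or −1.98 without RB-deficient 1. SESN1, a stress-induced sestrin, differed by −2.97 (SE 1.01; −1.11 without RB-deficient 1 and 2 together), XPC, a DNA damage sensor, by −1.54 (SE 0.51) and TP53I3 by −1.11 (SE 0.56), each without overlap. These 4 of 22 genes were 18.2% of the list, near the 15.3% of all genes that were lower without overlap. PLK3, a stress-responsive kinase named here after its values were seen, was higher without overlap (difference 0.90, SE 0.54). It was 1 of 22 genes of the list, where 7.12% of all genes were higher without overlap. PLK3 was dim, at 5.12, 3.91 and 3.88 in the RB-deficient-labelled arrays 1 to 3, against 3.85, 3.11 and 3.25 in RB-proficient arrays 1 to 3. The closest values were thus 3.88 in RB-deficient 3 and 3.85 in RB-proficient 1.

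Of the genes around CDKN2A and CDKN2B, 6 were measured and 4 had differences above 0, with a median of 0.54. MTAP, an enzyme of methionine salvage, was at 4.85, 5.27 and 5.58 in the RB-deficient-labelled arrays 1 to 3, against 4.08, 4.84 and 4.31 in RB-proficient arrays 1 to 3. The MTAP groups did not overlap, the closest values being 4.85 in RB-deficient 1 and 4.84 in RB-proficient 2, and they overlapped with no scaling. No label says how far the loss of CDKN2A and CDKN2B reaches, and whether these cells carry MTAP was not tested. IFNB1, which encodes interferon beta, differed by 1.83 (SE 0.62, adjusted p 0.274 in limma's test) and DMRTA1 by 0.78 (SE 0.47), each without overlap on the higher side, where 7.12% of all genes were. IFNB1 was dim, under a scaled 16 in 4 of 6 arrays, and with the offset of 16 its difference was 0.68. ELAVL2 differed by −0.56 (SE 0.63). Of the neighbours of CDKN1C, 3 were measured, and besides PHLDA2 they were NAP1L4 (difference −0.97, SE 0.53) and KCNQ1 (0.39, SE 0.48).

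**Figure D5:**
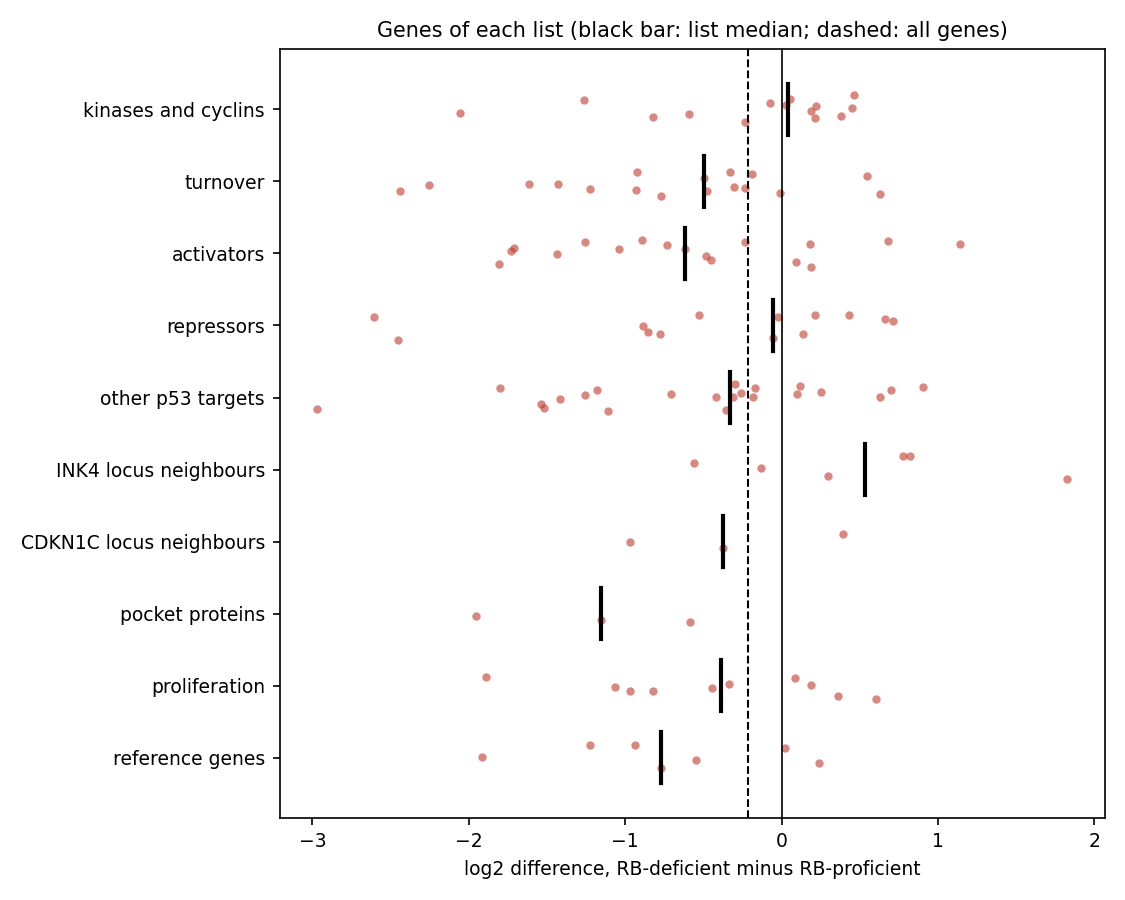
Differences of the partner, regulator and neighbour genes and of the pocket protein, p53 target, proliferation and reference lists, RB-deficient minus RB-proficient on the log2 scale, 1 point per gene, with list medians as black bars and the median of all genes dashed. List medians run from −1.15 for the 3 pocket proteins to 0.54 for the 6 genes around CDKN2A and CDKN2B, and limma called 0 of the genes shown at an adjusted p of 0.05.

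The remaining lists are given as values, since none of their genes passed the adjusted p of 0.05 in limma's test and their part in the values of the inhibitor genes was not tested. The pocket proteins RBL2 and RBL1, relatives of RB, differed by −1.15 (SE 0.50) and −0.58 (SE 0.61). The reference genes had 5 of 7 differences below 0 and a median of −0.77, with ACTB at −1.92 (SE 0.50), GAPDH at −1.23 (SE 0.47), TBP at −0.94 (SE 0.55) and PPIA at −0.77 (SE 0.51). Proliferation genes had 6 of 10 differences below 0, a median of −0.39 with all arrays and −0.81 without RB-deficient 1, with BUB1 at −1.89 (SE 0.64), PLK1 at −1.06 (SE 0.69), AURKA at −0.97 (SE 0.79) and PCNA at 0.60 (SE 0.52). Mammary epithelial markers were present on all arrays and had 6 of 7 differences below 0. The other, EPCAM, named here after its values were seen, differed by 0.24 (SE 0.46). Groups did not overlap for 4 of the 7 on the lower side and for EPCAM on the higher side, beside 15.3% and 7.12% of all genes. With no scaling the groups of EPCAM overlapped. Their summed scaled intensity was 1953 to 2814 in the RB-deficient-labelled arrays and 2839 to 5744 in the RB-proficient arrays, and KRT5 differed by −2.40 (SE 0.90), KRT8 by −1.33 (SE 0.53) and KRT18 by −1.27 (SE 0.48). The sum of 7 fibroblast markers was 135.8 to 266.2 in the RB-deficient-labelled arrays and 151.7 to 194.9 in the RB-proficient arrays, with COL3A1 and THY1 at the floor in RB-deficient 1, COL1A1 differing by 0.83 (SE 0.55) and PDGFRB by −0.80 (SE 0.59; −0.27 without RB-deficient 1), and the ranges of the sums overlapped. The sum of 5 endothelial markers was 307.1 to 359.7 in the RB-deficient-labelled arrays and 477 to 598.2 in the RB-proficient arrays, and it was mostly CDH5 (difference −0.86, SE 0.47). Of these markers 3 of 5 had differences below 0, CDH5 and PECAM1 without overlap, and VWF differed by 0.57 (SE 0.72). PECAM1 and VWF each lay under a scaled 16 in 4 of 6 arrays, and with the offset of 16 they differed by −0.36 and 0.40. For 5 leukocyte markers the sum was 180.1 to 262.1 in the RB-deficient-labelled arrays and 318 to 437.6 in the RB-proficient arrays, and it was mostly CD68 (difference −1.16, SE 0.47). Of these markers 3 of 5 had differences above 0, the median was 0.03, and PTPRC was higher without overlap (difference 1.38, SE 0.58, adjusted p 0.340 in limma's test), though under a scaled 16 in 5 of 6 arrays. LYZ differed by 0.78 (SE 0.52), and no marker of the endothelial or leukocyte list was at the floor on any array. All arrays were of the same epithelial line, so the fibroblast, endothelial and leukocyte marker signals cannot be read as amounts of such cells. The epithelial marker values cannot be read as numbers of cells either, since the medians of these bulk samples were made equal before comparison. Differences below 0 were found for 6 of these 7 markers and also for 5 of 7 reference genes, while EPCAM was above 0. What lay behind these differences was not tested.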

How the data were processed

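The authors deposited linear probe set intensities, made with Affymetrix Expression Console 1.1, per the submitters' processing notes. Per the labels' protocols, the WT-Ovation Pico kit amplified the total RNA, which carried a biotin label. How background and arrays were adjusted is not stated by any source at hand, and detection calls were not used. The annotation gave 1 symbol to 19460 of 33297 probe sets, several to 1754 and none to 12083. Arrays were multiplied to share a median of 26.83, floored at 1 and logged to base 2. The test was limma's lmFit and eBayes (version 3.58.1, R 4.3.3; two-sided, no covariates), with Benjamini-Hochberg adjustment over 18417 genes, on a script tested on simulated data. The number of arrays limits the precision. The members, gene lists, alternatives and the rule for named genes (the 4 smallest p of each list, the 3 closest genes of each member; CDK1, CDK2 and CDK6 were added after their values were seen) were chosen with earlier results of these data known. Same-numbered arrays did not deviate together (r −0.124, 0.0739 and −0.109), so no pairing was used. The labels give no batch, and 0 arrays were duplicates.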

Additional observations from a re-analysis of the deposited data

How the results depend on the processing

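The count of inhibitor genes past an adjusted p of 0.05 was 0 in all 17 alternative settings, with the replicate number as a block included, where 1 of 18417 genes passed and CDKN1A had an adjusted p of 0.302. The median difference of the members (0.44) ran from 0.10 to 0.62 with single arrays left out, lowest without RB-deficient 1, and was −0.11 without the arrays labelled RB-deficient 1 and 2 together. Without CDKN2A and CDKN2B, a choice made after seeing the data, it was 0.047, and that median of 4 genes ran from −0.30 to 0.29 with single arrays left out. CDKN2B ran from −0.031 to 0.64 with single arrays left out, below 0 without RB-deficient 1, and turned to −0.10 without RB-deficient 1 and 2, and CDKN2D to −0.12 without both; fewer arrays enter these fits, and with 1 array left its spread is taken from the other group. Of the 110 genes of all lists, reference genes and p53 targets included, 4 passed with the offset of 16, 1 with eBayes with trend and robust, and 0 with single arrays left out or otherwise. Of 57 list genes (the 4 smallest p of each list, CDK1, CDK2 and CDK6), 13 had a difference that moved by over 1.5 times or changed sign without RB-deficient 1, and 28 without at least 1 of the 6 arrays. Over all genes, 193 passed with the offset of 16, 58 with a floor of 16, 61 with trend and robust, and 1 with the main settings. CDKN2A, which was dim, left the test when the dimmest 25% of genes were removed, and CDKN1A left with the dimmest 50%.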
